A study of Mus musculus with 4 samples.

Results

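The RNA of potassium channel genes in the mouse central nervous system was followed on 4 Affymetrix arrays, on which each transcript is read by 1 or more probe sets. The members were all probe sets with a single platform gene symbol that starts with Kcn, without Kcne2 and Kcnj13. This gave 165 of the 45037 probe sets other than controls, for 82 genes, of which 79 name channel subunits and 3 name noncoding transcripts of a channel locus (Kcnq1ot1, Kcnmb4os1 and Kcnmb4os2). Target on 2 arrays was cDNA from a Nugen amplification kit and on 2 arrays antisense RNA (aRNA) from a T7 polymerase protocol. Both preparations started from total RNA of brain, hindbrain and spinal cord, and both have arrays numbered 1 and 0 without a statement of what the numbers mean. Strain, age, sex, treatment and number of animals are not stated in the labels. Differences in the RNA level of a bulk tissue cannot be told apart from differences in the share of the cells that make it.

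Potassium channels let potassium leave the cell and so set the resting potential, end the action potential and shape firing. Voltage-gated (Kv) alpha subunits form tetramers that open on depolarisation, and auxiliary subunits change how they gate and where they go. Calcium-activated and sodium-activated channels couple firing to ion load, inward rectifiers (Kir) hold the membrane near the potassium equilibrium, and two-pore (K2P) channels carry leak current. In the nervous system neurons use most of these families, while astrocytes rely largely on Kir4.1, the product of Kcnj10, to take up potassium.

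Markers of neural tissue were present. All 7 neuronal, all 6 astrocytic and all 5 oligodendrocytic marker genes with a probe set lay above background on every array, background being the 95th percentile of 27 Bacillus control probe sets (an intensity of 212 on cDNA array 0, 249 on cDNA array 1, 123 on aRNA array 0 and 126 on aRNA array 1). Of 4 hindbrain and spinal cord genes with a probe set, 2 or 3 lay above it on each array. Sex-linked transcripts set aRNA array 0 apart. Xist, the RNA of the inactive X chromosome, had an intensity of 3913 and 5812 at probe set 1436936_s_at on cDNA arrays 0 and 1, against 359 and 44312 on aRNA arrays 0 and 1. Eif2s3y, a Y-linked gene, had 226 and 11 on the cDNA arrays at probe set 1417210_at, against 8896 and 94.7 on aRNA arrays 0 and 1. Counts without aRNA array 0 are given beside the main ones.

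Of the 165 probe sets, 75 lay above background on all 4 arrays and 23 on none, where 48.0% and 14.9% of all probe sets did so. The filter, a mean over the arrays at or above the median of all probe sets, was passed by 80 of them for 51 genes, and 31 genes had no tested probe set. A member bright in 1 preparation alone could pass for that reason, so the counts below hold for probe sets that passed and not for the family.

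Compared with aRNA, cDNA readings of potassium channel genes were higher at some genes and lower at others in most classes. Kcna4, Kcnc4, Kcnj16 and the noncoding Kcnq1ot1 were among those higher on cDNA, and Kcna1, Kcnd2, Kcns2 and Kcnmb4 among those lower. Of the 80 tested probe sets 23 (28.75%) passed limma's test at an adjusted p under 0.05 as higher on cDNA, against a background of 20.2% over all 22519 tested, and 15 (18.75%) as lower, against 22.9%. A call in either direction was made for 47.5% of the members and 43.2% of all tested probe sets. Counts per subfamily below rest on few probe sets each and are to be read beside these shares. Without the noncoding transcripts the counts were 19 and 14 of 75, and without aRNA array 0 they were 21 (26.25%) and 14 (17.5%) of 80, against 16.2% and 15.5% of all tested probe sets in that setting. Both cDNA arrays lay above both aRNA arrays for 35 probe sets (34.1% of all tested probe sets did so) and below them for 26 (39.7%). The median difference of the members, in log2(intensity + 16), was 0.21, against −0.11 for all tested probe sets, but 0.05 without the noncoding transcripts. Centring each array on its median moves the median of all tested probe sets to −0.25 and that of the members with it, so that the members' median lies 0.31 above that of all tested probe sets in both scalings. Small differences are relative to this shift. The distance of 0.31 between the 2 medians depended on the probe sets tested. It was −0.01 with the filter at the 75th percentile, 0.09 without the filter and 0.16 without _x_at and _s_at probe sets. Without aRNA array 0 it was 0.39. The median absolute difference was 1.08 between the preparations, while cDNA arrays 1 and 0 differed by 0.48 and aRNA arrays 1 and 0 by 0.34. Over all tested probe sets these 3 values were 0.88, 0.37 and 0.33. Values beside ± after a difference are limma standard errors, and 2 arrays per preparation limit their precision. Pearson's r across the 80 members reached 0.916 for the pair of cDNA arrays, 0.935 for the pair of aRNA arrays and 0.631 to 0.692 between preparations, a description over probe sets that share the same 4 arrays.

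**Figure D1:**
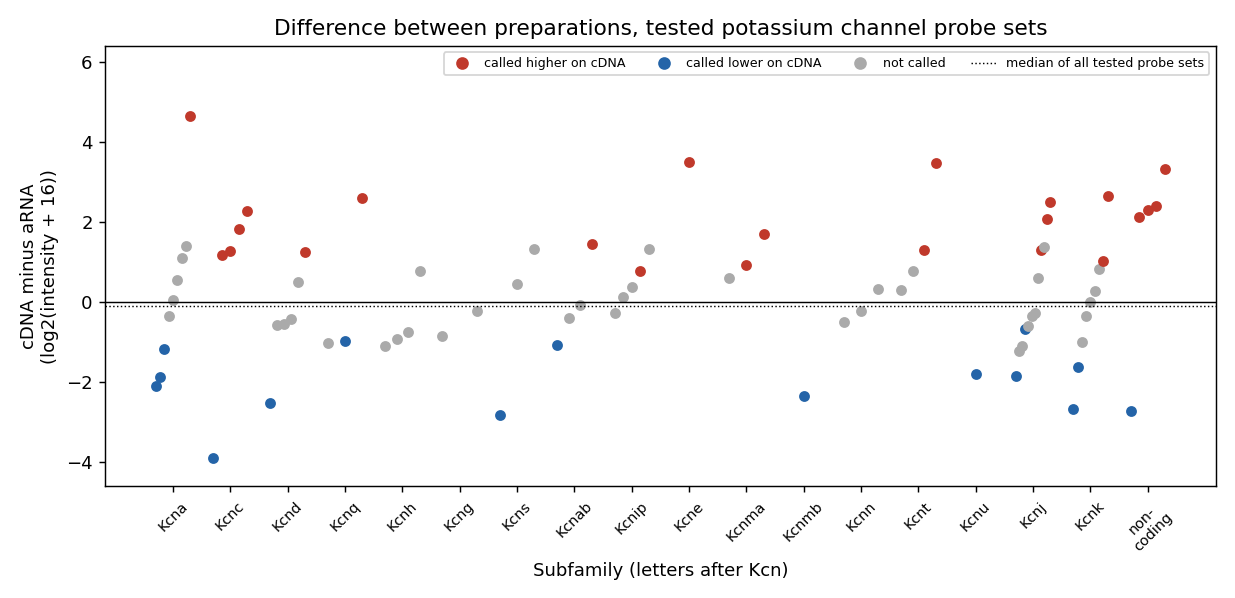
Difference in log2(intensity + 16), cDNA minus aRNA, of the 80 tested probe sets by subfamily (letters after Kcn), each point 1 probe set, red where called higher on cDNA, blue where called lower, grey where not called. The dotted line marks the median of all tested probe sets (−0.11). Of the subfamilies with several tested probe sets, Kcng, Kcnma and Kcnt alone lie on 1 side of 0.

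Among Kv1 (Kcna) subunits, which give low-threshold currents of axons and terminals, 1 of 9 tested probe sets was called higher and 3 lower on cDNA. Kcna1 (Kv1.1) had 5101 and 4814 on cDNA arrays 0 and 1 at probe set 1437230_at, against 22763 and 19901 on aRNA arrays 0 and 1 (−2.10 ± 0.23, adjusted p = 0.000214). At 1417416_at the same gene had 8500 and 8491 on cDNA, against 27704 and 35075 on aRNA (−1.87 ± 0.22, adjusted p = 0.000308). The third tested Kcna1 probe set, 1455785_at, had 22413 and 26445 against 29948 and 32334 and was not called (−0.35 ± 0.20, adjusted p = 0.183). All 3 had both cDNA arrays below both aRNA arrays, but by unequal amounts.

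Kcna2 (Kv1.2), which assembles with Kv1.1 at axons, was lower on cDNA at 1440759_at, with 9323 and 11352 against 22271 and 24147 on aRNA (−1.17 ± 0.22, adjusted p = 0.00309). At 1439872_at it had 15417 and 9461 against 12141 and 11200, and the groups overlapped (0.05 ± 0.28, adjusted p = 0.898). Kcna4 (Kv1.4), an inactivating subunit, went the other way by the largest difference of any tested member. It had 3397 and 3262 on cDNA, against 113 and 119 on aRNA, where both values lay under background, so it was at least 23.8-fold higher on cDNA (adjusted p = 9.83e-05). Its other probe set, 1422255_at, was not tested and had 220 and 212 against 226 and 206, so only 1 of the 2 shows that gap. Kcna6 (Kv1.6) missed the threshold at 1441049_at (1.10 ± 0.40, adjusted p = 0.0519), with 11643 and 5120 on cDNA against 4236 and 3070 on aRNA. It passed in 7 of 13 alternatives, among them quantile normalization (adjusted p = 0.0417), without aRNA array 0 (0.041) and without cDNA array 1 (0.00767). Kcna5, a subunit known from vascular muscle, had 577 and 558 against 124 and 328 (1.41 ± 0.60, adjusted p = 0.0888).

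Kv3 (Kcnc) subunits, which let neurons fire at high rates and are abundant in cerebellar neurons and fast interneurons, were called at all 5 tested probe sets, 4 higher and 1 lower on cDNA. The direction of these 5 calls was the same with median centring and with quantile normalization. Kcnc4 (Kv3.4) had 42344 and 43790 on cDNA at 1425090_s_at, against 10042 and 14755 on aRNA (1.82 ± 0.24, adjusted p = 0.000459), and 2141 and 2231 against 378 and 505 at 1425089_at (2.28 ± 0.40, adjusted p = 0.00202). Kcnc2 (Kv3.2) had 7021 and 6811 against 3815 and 2088 (1.29 ± 0.34, adjusted p = 0.0144). That call was lost without aRNA array 1 (0.86, adjusted p = 0.0764).

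Kcnc1 (Kv3.1) was the only member gene with called probe sets in opposite directions. At 1443855_at it had 11002 and 16620 on cDNA, against 5139 and 6980 on aRNA (1.17 ± 0.29, adjusted p = 0.0112). At 1423559_at it had 54.2 and 370 on cDNA, the first under background, against 2550 and 2284 on aRNA, and was at least 8.2-fold lower on cDNA (adjusted p = 0.00301). Without cDNA array 1 the higher call was lost (0.88, adjusted p = 0.0787). The lower difference stayed called but its size rested on the cDNA arrays, −2.66 without cDNA array 0 and −5.11 without cDNA array 1. All 4 cerebellar marker genes (Pcp2, Calb1, Cbln1, Gabra6) were also called higher on cDNA, with summed intensities of 29464 and 94997 on the cDNA arrays against 1947 and 1383 on the aRNA arrays, where Pcp2 lay under background on aRNA array 1. Their part in the Kcnc values was not tested.

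**Figure D2:**
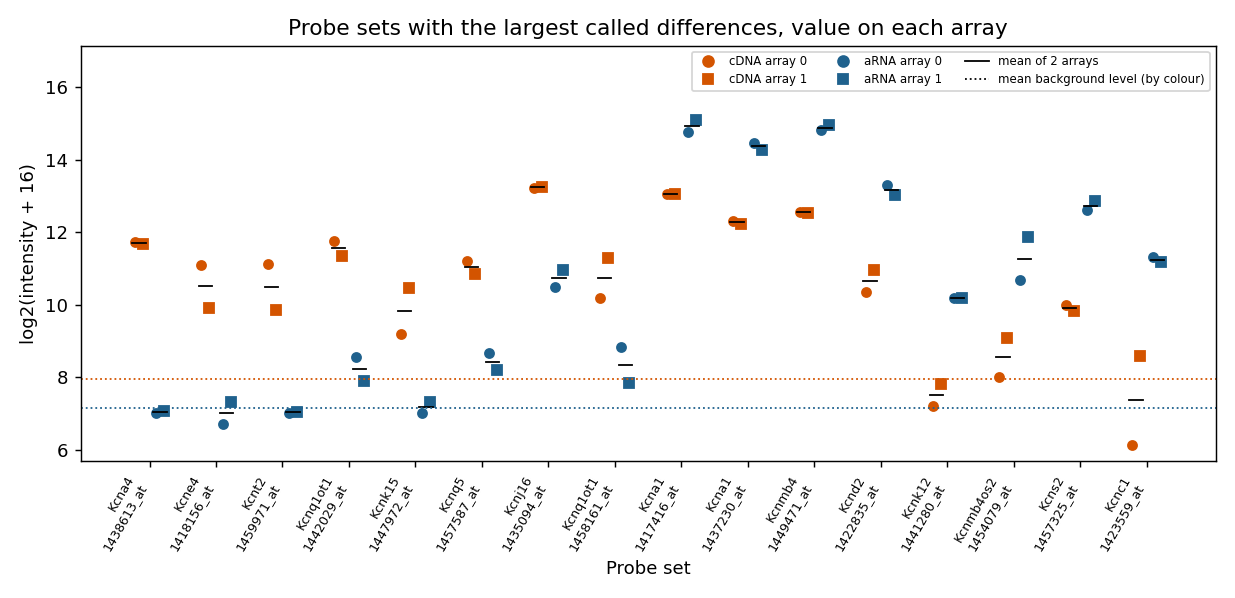
Log2(intensity + 16) on each array for the 8 probe sets with the largest called difference in each direction; circles are arrays 0, squares arrays 1, orange cDNA, blue aRNA, bars the mean of 2 arrays, dotted lines the mean background level of each preparation. Kcna4 and Kcnt2 lie under background on both aRNA arrays, and Kcnk12 on both cDNA arrays.

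Kv4 (Kcnd) subunits, which carry the A-type current of dendrites, were called at 2 of 6 tested probe sets, 1 each way. Kcnd3 (Kv4.3) had 25690 and 28741 on cDNA at 1435720_at, against 10608 and 12078 on aRNA (1.26 ± 0.21, adjusted p = 0.00175). Kcnd2 (Kv4.2) had 1283 and 1961 on cDNA at 1422835_at, against 10135 and 8366 on aRNA (−2.52 ± 0.32, adjusted p = 0.000404). The other 2 tested Kcnd2 probe sets overlapped between the preparations (−0.42 and −0.57, adjusted p = 0.495 and 0.402). Both Kcnd1 probe sets tested were not called (0.51 and −0.54).

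Kv7 (Kcnq) subunits carry the M-current, which restrains repetitive firing. Kcnq5 had 2329 and 1843 on cDNA at 1457587_at, against 388 and 276 on aRNA (2.61 ± 0.43, adjusted p = 0.00148). Its other probe sets, 1427426_at and 1441071_at, lay under background on all 4 arrays. Kcnq3 was lower on cDNA at 1435957_at, with 5573 and 3845 against 8061 and 10234 (−0.97 ± 0.29, adjusted p = 0.025). Kcnq3 did not pass without cDNA array 1 (−0.70, adjusted p = 0.131) or aRNA array 1 (−0.80, adjusted p = 0.119). The other tested Kcnq3 probe set, 1458421_at, was not called (−1.02). Kcnq1, best known from heart and inner ear, lay under background on all 4 arrays.

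None of the 4 tested probe sets of the EAG, ERG and ELK channels (Kcnh) was called, but each passed in 1 of the alternatives. Kcnh1 had 3480 and 3710 on cDNA at 1435994_at, against 2231 and 1921 on aRNA (0.79 ± 0.30, adjusted p = 0.0628), and Kcnh2 had 3509 and 2657 against 4545 and 5841 (−0.75 ± 0.30, adjusted p = 0.0736). The Kcnh1 value passed as higher with the filter at the 75th percentile (adjusted p = 0.0499) and the Kcnh2 value as lower with median centring (0.0413). Without cDNA array 0, Kcnh1 at 1418414_at (−2.05, adjusted p = 0.00686) and Kcnh3 at 1421619_at (−1.46, adjusted p = 0.0396) passed as lower.

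Of the 5 tested probe sets of the silent subunits (Kcng and Kcns), which form no channel alone and modify Kv2 channels, 1 was called. Kcns2 had 1007 and 898 on cDNA at 1457325_at, against 6206 and 7475 on aRNA (−2.82 ± 0.31, adjusted p = 0.000217). Its other probe set, 1421342_at, overlapped (0.47 ± 0.63, adjusted p = 0.578). Kcns3 at 1445519_at, with 1476 and 1408 on cDNA against 894 and 357 on aRNA, missed the threshold (1.32 ± 0.50, adjusted p = 0.0592) but passed as higher with the replicate block (0.0376) and without aRNA array 0 (1.96, adjusted p = 0.0238). Kcng1 at 1457052_at passed as lower without cDNA array 0 (−1.42, adjusted p = 0.0223).

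Auxiliary subunits had 11 tested probe sets, 3 of them called higher and 2 lower on cDNA. Kcnmb4, the neuronal beta subunit of the large-conductance BK channel, had 6031 and 5965 on cDNA, against 28972 and 31766 on aRNA (−2.34 ± 0.22, adjusted p = 9.94e-05). Between arrays 1 and 0 it differed by −0.02 on cDNA and by 0.13 on aRNA. Kcnab1, a cytoplasmic beta subunit of Kv1 channels, had 27070 and 23875 on cDNA at 1448468_a_at, against 61338 and 46503 on aRNA (−1.07 ± 0.21, adjusted p = 0.00353).

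Kcnab2, a related beta subunit, was not called, and its preparations overlapped (15847 and 19386 on cDNA against 18656 and 18363 on aRNA, −0.08 ± 0.22, adjusted p = 0.791). Kcnab3 was higher on cDNA, with 1326 and 1920 against 625 and 525 (1.45 ± 0.41, adjusted p = 0.0199). Leaving out cDNA array 1 (adjusted p = 0.0742), aRNA array 0 (0.0522) or aRNA array 1 (0.0872) ended the Kcnab3 call. Kcne4, a single-span subunit of the MinK family, had 2158 and 954 on cDNA, against 87.9 and 142 on aRNA, the first under background, and was at least 9.8-fold higher on cDNA (adjusted p = 0.00161).

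KChIP proteins (Kcnip) bind calcium and bring Kv4 channels to the surface. Kcnip4 was called at 1437631_at, with 8013 and 9999 on cDNA against 5379 and 5097 on aRNA (0.77 ± 0.26, adjusted p = 0.038), a call lost without any 1 of the 4 arrays (adjusted p from 0.0524 to 0.176) and with median centring (adjusted p = 0.0801). Both tested Kcnip1 probe sets overlapped between the preparations (0.39 and −0.27). None of the probe sets of Kcnip2 and Kcnip3 passed the filter.

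Calcium-activated and sodium-activated channels, with Kcnu1 counted among them, had 11 tested probe sets, 4 of them called higher and 1 lower on cDNA. The 1 lower call was that of Kcnu1. Kcnma1, the pore-forming BK subunit, had 1957 and 1571 on cDNA at 1428948_at, against 577 and 480 on aRNA (1.71 ± 0.40, adjusted p = 0.00847), and 3249 and 4835 against 1861 and 2312 at 1424848_at (0.93 ± 0.33, adjusted p = 0.0496). The second did not pass without cDNA array 1 (0.64, adjusted p = 0.211), aRNA array 0 (0.77, adjusted p = 0.186) or aRNA array 1 (1.08, adjusted p = 0.0706), or with median centring (adjusted p = 0.0851). A Kcnma1 probe set that did not pass the filter, 1425987_a_at, singled out after its values were seen, read 54.4 and 37.7 on cDNA, both under background, against 1416 and 1399 on aRNA. It was at least 5.8-fold lower on cDNA and so pointed against the 3 tested ones.

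Kcnt1, a sodium-activated channel, had 2868 and 2903 on cDNA at 1458428_at, against 1108 and 1218 on aRNA (1.30 ± 0.33, adjusted p = 0.0122). That call was lost without aRNA array 0 (1.23, adjusted p = 0.0536), and its other probe sets were not called (0.77 and 0.30). Kcnt2, its relative, had 2212 and 917 on cDNA, against 112 and 116 on aRNA, both under background, and was at least 10.3-fold higher on cDNA (adjusted p = 0.00158). Its difference was 2.84 without cDNA array 0 and 4.10 without cDNA array 1, both called. Kcnu1, known as a sperm channel, was lower on cDNA, with 270 and 859 against 2417 and 1206 (−1.79 ± 0.60, adjusted p = 0.039). Kcnu1 did not pass without cDNA array 0 (−0.98, adjusted p = 0.152) or aRNA array 0 (−1.29, adjusted p = 0.229), and its difference was −2.59 without cDNA array 1. The small-conductance SK genes Kcnn1 and Kcnn2 were not called, with differences between −0.49 and 0.33.

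Inward rectifiers (Kcnj) were called at 5 of 12 tested probe sets (41.7%, against 43.2% of all tested probe sets). Of these 3 were higher and 2 lower on cDNA, and with median centring 2 and 3. Kcnj16 (Kir5.1), which pairs with Kir4.1 in glia, had 9629 and 9726 on cDNA at 1435094_at, against 1430 and 1990 on aRNA (2.51 ± 0.30, adjusted p = 0.000295). Its partner Kcnj10 (Kir4.1) had 6173 and 11175 on cDNA, against 14458 and 60620 on aRNA, and was called lower (−1.83 ± 0.57, adjusted p = 0.0299). The 2 subunits of 1 glial channel were thus called in opposite directions at these probe sets. Kcnj10 did not pass without cDNA array 0 (−1.40, adjusted p = 0.134) or aRNA array 1 (−0.80, adjusted p = 0.114), and its difference was −2.87 without aRNA array 0. The Kcnj10 call was also lost without an intensity trend. Of 6 astrocyte marker genes 2 were called higher and 2 lower on cDNA. The second Kcnj16 probe set, 1436163_at, had 673 and 586 against 1045 and 872 and was not called (−0.59 ± 0.42, adjusted p = 0.282).

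The G-protein-gated channels (GIRK), which slow firing on transmitter input, gave 2 calls among 5 tested probe sets. Kcnj9 (GIRK3) had 2745 and 2369 on cDNA at 1428602_at, against 654 and 529 on aRNA (2.09 ± 0.37, adjusted p = 0.00231). Kcnj3 (GIRK1) had 15610 and 9089 on cDNA at 1455374_at, against 7475 and 3110 on aRNA (1.30 ± 0.43, adjusted p = 0.0359). Kcnj3 did not pass without cDNA array 0 (0.91, adjusted p = 0.183) or aRNA array 1 (0.67, adjusted p = 0.169), or with median centring (adjusted p = 0.0546); it was 1.93 without aRNA array 0. At its brightest probe set, 1450712_at, Kcnj9 had 728 and 1857 on cDNA against 422 and 4525 on aRNA. It was not called there (−0.26 ± 0.93, adjusted p = 0.845), nor was Kcnj3 at 1444025_at (−0.34 ± 0.86, adjusted p = 0.772), and both overlapped between the preparations. Another probe set of each gene had both cDNA arrays below both aRNA arrays. At 1421468_at Kcnj3 had 359 and 234 on cDNA, the second under background, against 608 and 810 on aRNA, at least 2.28-fold lower without a call (adjusted p = 0.0797, and 0.0391 without an intensity trend). At 1433029_at, which was not tested, Kcnj9 had 58.5 and 17.4 on cDNA, both under background, against 484 and 433 on aRNA, at least 1.93-fold lower. None of the 5 probe sets of Kcnj6 (GIRK2) passed the filter.

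Kcnj14 (Kir2.4) was bright on all arrays and slightly lower on cDNA, with 29786 and 32347 against 49475 and 49775 (−0.68 ± 0.18, adjusted p = 0.0154, and 0.0852 without cDNA array 0). The pore of the ATP-sensitive channel, Kcnj11, had 707 and 501 against 1306 and 1253 (−1.08 ± 0.41, adjusted p = 0.0619). It passed as lower in 3 alternatives, with median centring (adjusted p = 0.0389), without an intensity trend (0.0407) and without cDNA array 0 (−1.32, adjusted p = 0.0395). Kcnj8, a pericyte channel, had 998 and 649 against 609 and 142 (1.39 ± 0.68, adjusted p = 0.131), and passed without aRNA array 0 (2.38, adjusted p = 0.0326). All 5 pericyte and smooth muscle marker genes had both cDNA arrays above both aRNA arrays and 4 were called higher, with summed intensities of 86403 and 41920 on cDNA against 15463 and 16563 on aRNA, and 2 of 3 tested endothelial markers were called higher. Their part in the values of Kcnj8, Kcna5 and Kcnn4 was not tested. Kcnj2 and Kcnj4 lay under background on all 4 arrays.

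Two-pore channels (Kcnk) were called at 4 of 9 tested probe sets (44.4%, against 43.2% of all tested probe sets), 2 each way. Kcnk1 (TWIK1) had 23661 and 32930 on cDNA at 1448690_at, against 15420 and 12135 on aRNA (1.03 ± 0.24, adjusted p = 0.00925), a call lost without cDNA array 1 (0.79, adjusted p = 0.0737). Kcnk15 had 563 and 1389 on cDNA, against 114 and 144 on aRNA, the first under background, and was at least 6.05-fold higher on cDNA (adjusted p = 0.00762). Its difference was 3.29 without cDNA array 0 and 2.01, no longer called, without cDNA array 1 (adjusted p = 0.0601). Kcnk12 (THIK2) had 131 and 210 on cDNA, both under background, against 1150 and 1144 on aRNA, and was at least 4.74-fold lower on cDNA (adjusted p = 0.003).

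Kcnk10 (TREK2) had 624 and 219 on cDNA, the second under background, against 1273 and 1071 on aRNA, and was at least 2.88-fold lower on cDNA (adjusted p = 0.0426). Kcnk10 did not pass without cDNA array 1 (−0.89), aRNA array 0 (−1.49) or aRNA array 1 (−1.73), with adjusted p from 0.109 to 0.179, and its difference was −2.33 without cDNA array 0. The leak channel genes Kcnk2 (TREK1, −0.34 ± 0.32, adjusted p = 0.43) and Kcnk3 (TASK1, 0.29 ± 0.24, adjusted p = 0.366) were not called. Kcnk13 (THIK1), a channel of microglia, had 282 and 490 against 492 and 276, so that the groups overlapped.

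The noncoding transcripts were called at all 5 tested probe sets. Kcnq1ot1, a long RNA made antisense to Kcnq1 from the paternal copy, was higher on cDNA at all 4 tested probe sets, by 2.12 to 3.34 (adjusted p from 0.000465 to 0.0129). At 1442029_at it had 3475 and 2594 on cDNA, against 362 and 221 on aRNA, and at 1457781_at 1333 and 1366 against 263 and 255. The call at 1446255_at was lost without cDNA array 0, aRNA array 0 or aRNA array 1 (adjusted p from 0.0517 to 0.0695), while the other 3 were kept whichever array was left out. Kcnmb4os2, an antisense transcript that overlaps Kcnmb4 in RefSeq's annotation, had 242 and 525 on cDNA, against 1629 and 3695 on aRNA (−2.73 ± 0.54, adjusted p = 0.00393). Its difference was −3.31 without aRNA array 0 and −2.14 without aRNA array 1, both called. Kcnmb4 itself was also lower on cDNA, and nothing in the labels tells whether these probe sets separate the 2 strands.

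The 31 genes without a tested probe set include several with a bound but no test. Kcnn4, an SK-family channel of immune and endothelial cells, read 708 and 343 on cDNA at 1435945_a_at. On aRNA it read 34.7 and 20.4, both under background, so it was at least 3.63-fold higher on cDNA. The other Kcnn4 probe set, 1421038_a_at, lay under background on all 4 arrays. Kcnip3, a KChIP also known as DREAM, read 532 and 528 on cDNA at 1418544_at, against 220 and 88.6 on aRNA. The last value lay under background, so this probe set was at least 2.99-fold higher on cDNA. The brighter Kcnip3 probe set, 1449129_a_at, read 471 and 153 on cDNA, the second under background, against 274 and 435 on aRNA. There the preparations overlapped, with a lower mean on cDNA (−0.34). In the other direction Kcnk4 (TRAAK), a mechanosensitive leak channel, read 17.9 and 36.9 on cDNA, both under background, against 537 and 388 on aRNA, at least 1.92-fold lower. Neither of the Kv silent subfamilies Kcnf and Kcnv had a tested probe set.

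Several probe sets were tested for 21 member genes, and 9 of these had differences of both signs. The median spread between the highest and the lowest difference of a gene was 1.2. Of the 5 member genes with several called probe sets, 1 (Kcnc1) was called in opposite directions, where 45.4% of all such genes were. The other 4 were Kcna1, both lower, and Kcnc4, Kcnma1 and Kcnq1ot1, all higher.

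**Figure D3:**
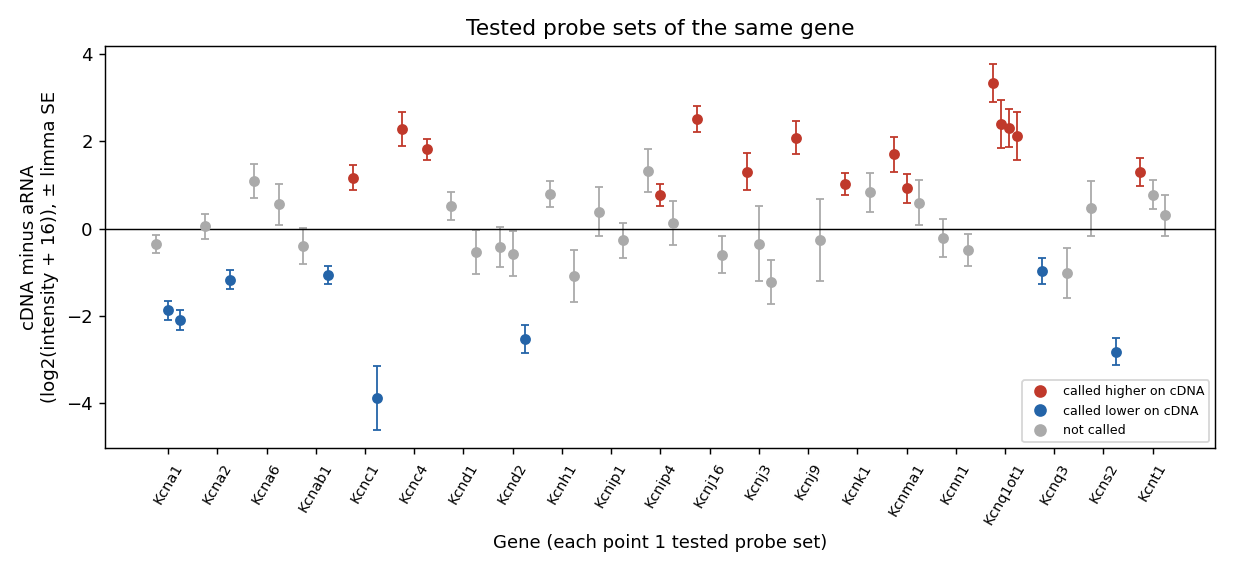
Difference in log2(intensity + 16), cDNA minus aRNA, with limma standard errors, for the 21 member genes with several tested probe sets, red where called higher on cDNA, blue where called lower, grey where not called. Kcnc1 is the 1 gene with a red and a blue point. Kcna1, Kcna2, Kcnab1, Kcnd2, Kcnip4, Kcnj3, Kcnj9, Kcnj16, Kcnk1, Kcnma1, Kcnq3, Kcns2 and Kcnt1 each have called and uncalled probe sets.

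Genes that work with these channels, 1 probe set each, gave 5 calls higher and 3 lower among 25 tested genes, with a median of −0.10 (−0.06 for all 11945 genes tested in this way, of which 21.9% were called higher and 22.9% lower). Amigo1, a Kv2 partner, was higher on cDNA by 3.37, and so was the Kv1 scaffold gene Dlg2 by 2.89, the channel ubiquitin ligase gene Nedd4l by 2.38, the ankyrin gene Ank2 by 1.23 and Cntn2, a juxtaparanodal adhesion gene, by 1.05 (adjusted p up to 0.0134). Dpp6, which joins Kv4 channels, was lower on cDNA (−1.05), and so were the chloride extruder gene Slc12a5 (−0.92) and, at least 3.94-fold, the pacemaker channel gene Hcn3 (adjusted p up to 0.0179). None of the 3 measured sodium pump subunit genes was called.

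Arrays numbered 1 were then compared with arrays numbered 0 in a model that also holds the preparation. Within aRNA this sets an array high in Xist (number 1) against an array high in Eif2s3y (number 0). The number and that difference cannot be told apart there. No member was called by limma, and the lowest adjusted p was 0.166. The background was 12 calls higher on number 1 (0.0533% of all tested probe sets) and 2 lower (0.00888%). At an unadjusted p under 0.05, 8 of the 80 members passed (10%), against 5.86% of all tested probe sets, while 9 members did so without an intensity trend and 2 with the number as the only factor. Members were higher on number 1 in both preparations at 20 probe sets (24.9% of all probe sets did so) and lower in both at 25 (26.6%). The median difference was −0.02, as it was −0.01 over all tested probe sets.

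Inward rectifiers, 12 of the 80 tested members, made up 5 of those 8, an observation made after their values were seen. These probe sets came from Kcnj3, Kcnj8, Kcnj9 and Kcnj10, were read on the same 4 arrays and did not share a direction. Kcnj10 had 11175 on cDNA array 1 and 60620 on aRNA array 1, against 6173 on cDNA array 0 and 14458 on aRNA array 0. It was thus higher on number 1 in both preparations, by 0.85 within cDNA and 2.07 within aRNA (1.46 ± 0.28, adjusted p = 0.166). It passed the threshold with quantile normalization (adjusted p = 0.00219), without the filter (0.0389) and with the filter at the 75th percentile (0.0402). Kcnj9 at 1450712_at had 1857 and 4525 on cDNA array 1 and aRNA array 1, against 728 and 422 on the number 0 arrays (2.35 ± 0.50, adjusted p = 0.271), and passed with quantile normalization (adjusted p = 0.00671). The other tested Kcnj9 probe set, 1428602_at, gave −0.21 within cDNA and −0.30 within aRNA. In RefSeq's gene table Kcnj9 and Kcnj10 neighbour each other with no gene between them.

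Kcnj3 was lower on number 1 at 2 of its 3 tested probe sets, without a call. At 1455374_at it had 9089 and 3110 on the number 1 arrays of cDNA and aRNA, against 15610 and 7475 on the number 0 arrays (−1.02 ± 0.28, adjusted p = 0.612). At 1444025_at it had 173 and 245, the first under background, against 876 and 1023, at least 3.66-fold lower on number 1 (adjusted p = 0.553). The third, 1421468_at, had opposite signs within cDNA (−0.58) and aRNA (0.41). Kcnj8 had 649 and 142 on number 1, against 998 and 609 on number 0 (−1.30 ± 0.57, adjusted p = 0.833).

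The other 3 members with an unadjusted p under 0.05 were Kcnmb4os2 (1.12 ± 0.44), Kcna6 at 1441049_at (−0.82 ± 0.31) and Kcnip4 at 1451840_at (−1.05 ± 0.40), with adjusted p of 0.782 to 0.787. Further members high on number 1 in both preparations were Kcns2 at 1421342_at (0.98), Kcnma1 at 1440728_at (0.92), Kcnk6 (0.78), Kcnc1 at 1443855_at (0.52) and Kcnma1 at 1424848_at (0.44). Those low in both included Kcna6 at 1456954_at (−0.71), Kcnk1 at 1455896_a_at (−0.72) and Kcnk2 (−0.52). None of these passed, with adjusted p from 0.871 to 0.904.

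Marker sums of other cells differed between the numbers too. The 6 astrocyte genes had summed intensities of 165893 and 177429 on number 1 arrays of cDNA and aRNA, against 128316 and 130849 on number 0, and the 8 microglial genes 118081 and 130825 against 61231 and 25500. Such sums weigh the brightest genes most. Of the 6 astrocyte genes 4 were higher on number 1 in both preparations and 2 had mixed signs. Gfap differed most, by 1.14 within cDNA and 5.27 within aRNA. At an unadjusted limma p under 0.05, 4 of the 6 passed. None of the astrocyte markers was called between the numbers (lowest adjusted p = 0.265), while 3 microglial markers were called higher on number 1 (lowest adjusted p = 0.00902). Of the 8 microglial genes 6 were higher on number 1 in both preparations. The other 2 had mixed signs, Cx3cr1 with −0.68 within cDNA and P2ry12 with −0.21 within aRNA. The 5 pericyte and smooth muscle genes had 41920 and 16563 on number 1, against 86403 and 15463 on number 0, so that the sums ran in opposite directions in the 2 preparations, and none of them was called. Their part in the values of Kcnj10 and Kcnj8 was not tested.

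**Figure D4:**
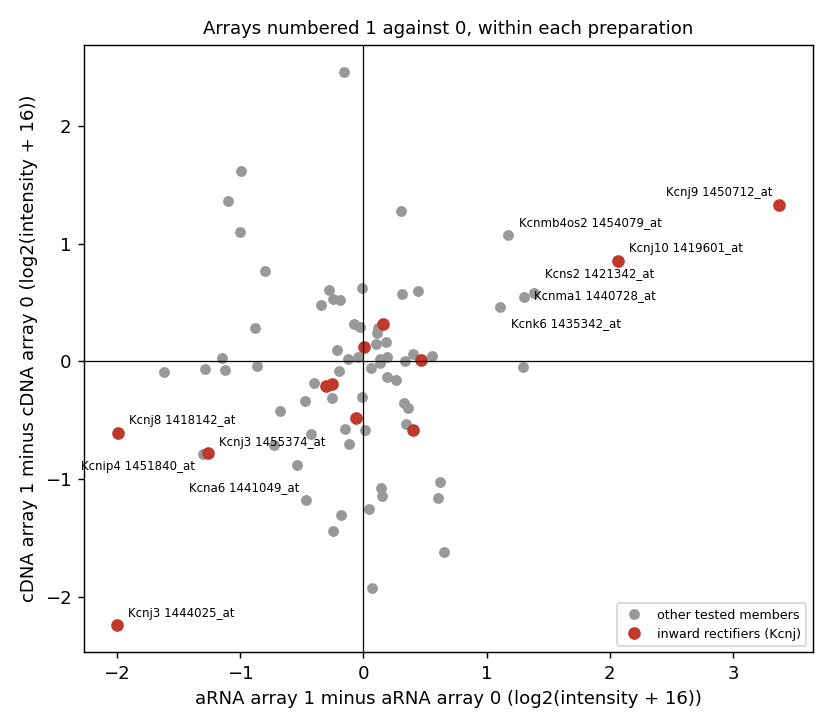
Difference between arrays numbered 1 and 0 in log2(intensity + 16), within aRNA (horizontal) and within cDNA (vertical), for the 80 tested probe sets, inward rectifiers in red. Kcnj10 and Kcnj9 1450712_at lie at the upper right (2.07 and 3.37 within aRNA) and Kcnj3 1444025_at at the lower left.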

How the data were processed

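For every probe set the authors deposited 1 linear intensity per array. A 2% trimmed mean of 2500.02 on all arrays shows that these had been scaled, and no further scaling was applied. No source used here names the summarising software. Analysis was on log2(intensity + 16), which makes fold changes of dim probe sets look smaller than they are. Without 64 controls, the 22519 probe sets whose mean reached the median entered limma 3.58.1 in R 4.3.3 (lmFit, trended eBayes, Benjamini-Hochberg over all tested, threshold 0.05). Preparation was the only factor of the first comparison, and the second added the number to it, with 1 residual degree of freedom. As separate animals are not stated for the arrays, p-values cover only the spread between these arrays. For the cDNA pair that spread may be technical, which was not tested. The 4 cerebellar marker genes summed to 29464 on cDNA array 0 and 94997 on cDNA array 1. The aRNA arrays differ in Xist and Eif2s3y and cannot be taken as repeats of 1 RNA sample.

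Where an array on the dimmer side lay under background, the fold is a lower bound against the higher of background and the measured value. Symbols came from the platform annotation, and all 165 member probe sets were found in RefSeq's gene table by gene identifier. Members and lists were chosen with earlier results of these data known. Named were the brightest probe set of each of 49 listed channels (44 had one, 33 tested), the 8 largest called differences each way, genes with opposite calls, and up to 8 probe sets each way with the same sign between the numbers in both preparations. Further members in the text were chosen after their values were seen. The fit was tested on simulated data. Alternatives were the pseudocount, the filter, 2 normalizations, the variance trend, the array number as a block, kinds of probe set and each array left out. Plots used matplotlib 3.10.9 and Python 3.11.15.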

Additional observations from a re-analysis of the deposited data

Results flagged for a closer look

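In 5 of the tested probe sets named by the rule the cDNA minus aRNA difference had opposite signs on the arrays numbered 1 and those numbered 0, with 1 array per cell, so the difference was not tested. It was −1.28 at number 1 and 0.76 at number 0 for Kcnj9 1450712_at, and 0.79 and −0.77 for Kcnk13 1424125_at. It was 0.25 and −0.79 for Kcnip1 1448459_at, and 0.0781 and −0.235 for Kcnab2 1416956_at. It was 0.38 and −0.13 for Kcnip4 1451840_at. Probe sets that did not pass the filter were not searched. None of the 5 was called between the preparations, though Kcnj9 1450712_at passed without aRNA array 0 (−1.94, adjusted p = 0.0216). Groups of 2 arrays are too small for a search for outlying arrays.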

How the results depend on the processing

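Between the preparations the counts of member calls, 23 higher and 15 lower, stayed within 1.5 times of these values under 12 of the 13 alternatives tried. The exception was the filter at the 75th percentile, which left 32 members tested, with 11 higher and 10 lower, a median of −0.15 and 19 named probe sets called (29 in the main fit). With an array left out the counts were 17 to 21 higher and 12 to 17 lower. The median of 0.21 was 0.0586 with median centring, 0.118 with pseudocount 64, 0.0928 without the filter, 0.0411 without _x_at and _s_at probe sets, 0.110 without aRNA array 1 and, in an alternative added after the data were seen, 0.0506 without the noncoding transcripts. Of the 29 named calls 18 held under every alternative that tested them, 11 were lost under at least 1 and none was reversed. The labels give arrays with the same number nothing else in common, and r between the number differences of the 2 preparations was 0.0412 over all tested probe sets and 0.228 over the 80 members. With the replicate block 25 members were called higher and 15 lower. Without an intensity trend 20 were called higher and 12 lower. Calls lost there included those of Kcnj10, Kcnj14, Kcnq3, Kcnu1, Kcnk1, Kcnk10 and Kcnip4 1437631_at. The alternatives given above with each gene are not a full list of those that ended its call.

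Between the numbers 0 members were called, and 1 was called without the filter (median −0.0528, 1 named) and with the filter at the 75th percentile (median 0.0611, 1 named), both times Kcnj10, and 2 with quantile normalization (2 named), Kcnj10 and Kcnj9 1450712_at. The median of −0.02 was −0.0527 with median centring, −0.0456 within cDNA only and, in an added alternative, 0.0527 with 1 probe set per gene. Leaving out an array leaves this comparison no residual degree of freedom, so values within each preparation stand in for it. Calls near background rest on signals that the arrays measure poorly: 9 of the 80 tested members lay under it on at least 1 array.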
